A study of Mus musculus and Homo sapiens with 12 samples.

Results

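MDA-MB-231 is an established human cell line of triple-negative breast cancer, that is, of a carcinoma that lacks the oestrogen receptor, the progesterone receptor and ERBB2 amplification. Transcripts of its LM cells were compared here with those of its Pri cells, in 6 libraries out of the 12 of the series, 3 per group. The design text names a derivative MDA-MB-231/LM3 and parental cells, and the title speaks of lung metastasis, so LM is taken here for that derivative and Pri for its parent. Both groups grew in DMEM with fetal bovine serum and antibiotics, with no other agent or allele named. The labels do not say how the LM cells were selected, whether they are 1 clone, or whether each library had its own culture. The p-values therefore measure only the spread between these libraries, which may be technical. Libraries were made from RNA depleted of ribosomal RNA. The members described below are the genes that passed a filter on low counts, grouped into 64 lists of pathways and families.

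Cells that seed a distant organ have to leave a matrix, survive detached and grow on a new one. Integrins, which bind matrix, and the actin cytoskeleton feed into YAP and TAZ, a pair of coactivators that switch on growth and matrix genes when cells are spread and under tension. TGF-beta and activin, growth factor receptors with their MAPK cascade, and the stress factor ATF4, which answers to lack of amino acids, are further inputs that are widely studied in metastatic breast cancer lines.

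Library totals were 18351785 to 20798513 counts in Pri and 19693214 to 24814971 in LM cells. Mitochondrial transcripts took 0.162% to 0.321% and 0.195% to 0.310% of these. The labelled cell type was checked against receptor genes: ESR1 had 0 to 6 counts per library and ERBB2 an FPKM of 5.85 to 6.93, while EGFR, abundant in many basal-like lines, stood at 72.0 to 87.7. Subtype genes of the same list were mixed. KRT17 had 0 to 3 and TP63 6 to 14 counts per library. XBP1 had an FPKM of 34.1 to 44.9, GATA3 1.13 to 1.84, FOXA1 1.39 to 1.83 and FOXC1 2.31 to 3.50. The progesterone receptor gene was not analysed here. FPKM is the read count scaled to the length of the gene and to the library total. Of 16 listed markers of leukocytes, endothelium, fibroblasts and lung epithelium, PTPRC had 0 to 4 counts per library, CD68 0 to 2, DCN 0 to 1, LUM 0 to 3 and SFTPB 0 to 2. Other markers had more: COL1A1 80 to 159 counts, ACTA2 20 to 44, KDR 20 to 39, PECAM1 16 to 55 and AGER 18 to 46. The summed FPKM of all 16 was 7.45 to 8.28 in Pri and 9.06 to 11.9 in LM libraries, of which NKX2-1 alone made 5.21 to 6.01 and 6.83 to 9.01. Only 6 of the 16 markers and 8 of the 11 receptor and subtype genes passed the filter on low counts and were tested. None of those tested had a stable call, as defined below. In the edgeR fit to all libraries, NKX2-1 was the 1 marker called higher at an adjusted p under 0.05. Of the receptor and subtype genes, 1 was called higher and 1, EGFR, lower. On the first principal component of log2 counts scaled to library size, which held 55.3% of the variance, the groups were apart (Pri -33.1 to -30.8, LM 27.1 to 40.1). The second held 19.5% and set Pri 1 (27.6) and LM 1 (26.0) apart from the other libraries (-19.6 to -10.9). These libraries also had the lowest mitochondrial share of their groups, and the part of this difference in the results was not tested.

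With edgeR, 2610 of 16792 tested genes (15.5%) had an adjusted p under 0.05, 1370 higher (8.16%) and 1240 lower (7.38%) in LM cells. This number ranged from 1479 without Pri 3 and 1721 without LM 3 to 2658 without LM 1. A stricter call is therefore used below: a stable call passed with the same sign in the fit to all libraries and in each of the 6 fits that left 1 library out. Stable calls were made for 1278 genes, 7.61% of those tested, with 641 higher (3.82%) and 637 lower (3.79%). For comparison, all 3 values of one group lay above those of the other for 5624 genes (33.5%). The median log2 changes of the stable calls were 0.64 and -0.66, against 0.0014 over all genes tested, and 152 of the higher and 218 of the lower genes changed by at least 1 on the log2 scale. On log2(FPKM + 0.5), limma found fewer: 570 genes were stable, 293 higher and 277 lower. In what follows, rose and fell are used of stable calls, every gene so named had groups that did not overlap in FPKM, a value in parentheses is a log2 change ± SE from edgeR, a median is that of the log2 changes of all tested members, and limma counts are stable calls. RGCC, the gene in the title of the series, ranked 30th by log2 change among the 641 stable higher genes. Among the 584 of these with a mean FPKM of at least 1 in LM cells it ranked 12th. It had 2.34, 2.38 and 2.05 FPKM in the Pri and 11.3, 9.22 and 8.79 in the LM libraries.

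**Figure D1:**
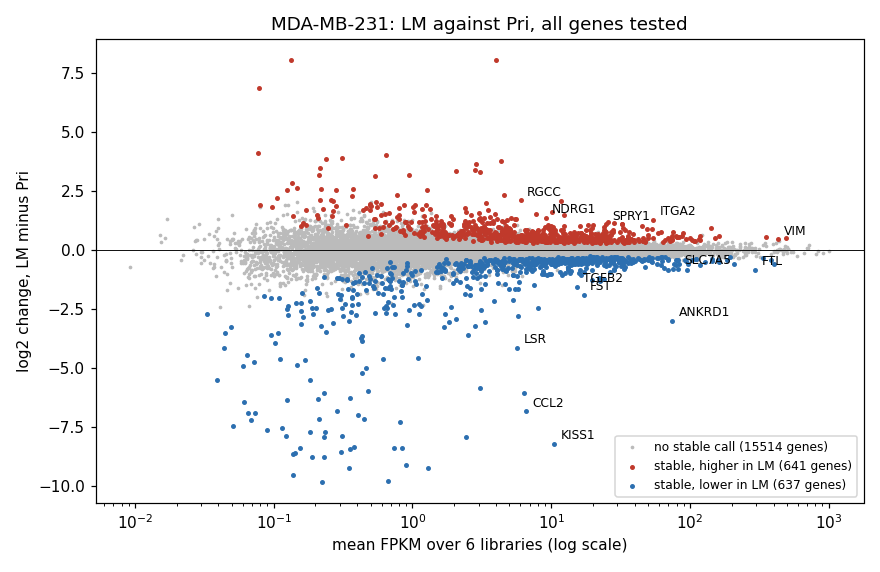
Log2 change of LM against Pri (vertical axis) by mean FPKM over the 6 libraries (horizontal axis, log scale) for the 16792 genes tested. Red points are the 641 stable higher genes and blue points the 637 stable lower genes. Falls beyond -5 lie mostly at low FPKM, and KISS1 and CCL2 are the labelled genes among them.

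The lists differed in how many members changed. Stable calls took 55.2% of the YAP and TAZ targets, 50% of MAPK feedback genes and 28.1% of the actin and smooth muscle genes. They took 6.9% of sterol genes, 7.14% of replication genes, 3.41% of chromatin modifiers and 0% of histone genes, at or below the 7.61% of all genes. The lists were chosen with earlier results of these data known and share members, so these shares describe them and carry no test.

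**Figure D2:**
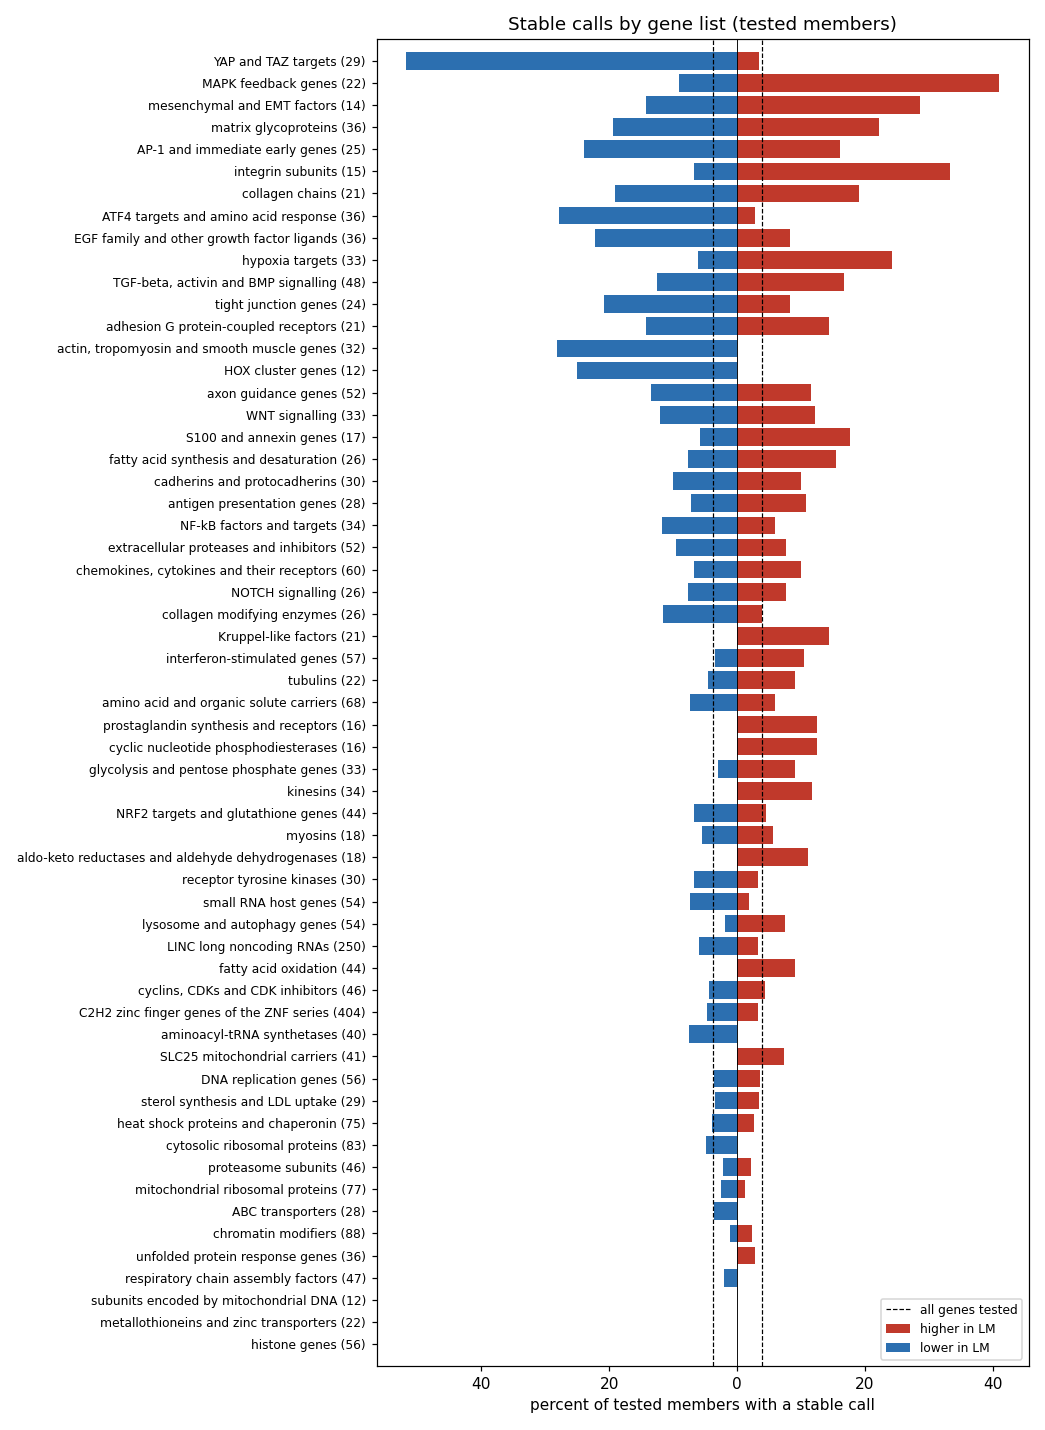
Percent of the tested members of each list with a stable call, higher in LM to the right and lower to the left, for lists of at least 12 tested members (their number in brackets), with 1 such list left out. Dashed lines mark all genes tested, 3.82% higher and 3.79% lower. YAP and TAZ targets extend farthest to the left and MAPK feedback genes farthest to the right.

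Among lists of at least 12 tested members, YAP and TAZ targets were the most often lower in LM cells. Of 29 tested, 15 fell and 1 rose, with a median log2 change of -0.36. With limma 7 fell and 1 rose. ANKRD1, a nuclear cofactor induced by YAP, had 147, 116 and 136 FPKM in the Pri and 8.62, 22.5 and 19.01 in the LM libraries. All LM libraries lay far below all Pri libraries, a log2 change of -3.01 ± 0.24 (SE, edgeR adjusted p = 8.15e-06). In these bulk libraries, fewer cells with a transcript and less of it per cell cannot be told apart. CRIM1, a transmembrane antagonist of bone morphogenetic proteins, fell from 77.5, 83.8 and 82.7 FPKM in the Pri to 39.4, 53.9 and 53.2 in the LM libraries, by 0.75 on the log2 scale. The matricellular gene CCN1, the most abundant member that fell, stood at 488, 465 and 493 FPKM in the Pri and 272, 359.6 and 339 in the LM libraries, and changed by -0.59 ± 0.09. NUAK2 (-1.52 ± 0.19), a kinase of the AMPK family, WTIP (-1.43 ± 0.17), AJUBA (-0.57 ± 0.10) and AMOTL2 (-0.43 ± 0.08), the last 3 of which encode scaffolds that act on the pathway, and TEAD1 (-0.38 ± 0.06), which encodes the DNA-binding partner of YAP, were lower as well. FOXF2 was the member that rose (0.96 ± 0.13). WWTR1, which encodes TAZ itself, is not in this list of targets. It had a stable call and was higher in LM cells, with a log2 change of 0.75.

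All stable calls in the list of actin and smooth muscle genes were lower. Of 32 actin, tropomyosin, filamin and focal adhesion genes, 9 fell and 0 rose (median -0.12, limma 6 and 0). In the fit to all libraries alone, 2 were called higher and 10 lower. Outside this list, the actin-binding genes GSN and SVIL had stable calls and were higher, with log2 changes of 1.19 and 0.69. The direction of other cytoskeleton genes outside the list was not counted. MYH10, which encodes nonmuscle myosin IIB, went from 6.58, 6.55 and 5.85 FPKM in the Pri to 0.546, 1.90 and 1.89 in the LM libraries. LM 1 held the lowest value, and LM 2 and LM 3 lay between it and the Pri libraries, for a log2 change of -2.16 ± 0.30. NEDD9, a focal adhesion scaffold, fell by 2.32 from 1.38, 1.21 and 1.03 FPKM in the Pri to 0.175, 0.265 and 0.293 in the LM libraries. The crosslinker genes FLNC (-0.84 ± 0.08), ACTN4 (-0.59 ± 0.07) and ACTN1 (-0.36 ± 0.07) fell from high levels. ACTN4 had 104, 96.9 and 99.8 FPKM in the Pri and 71.7, 65.98 and 62.9 in the LM libraries. The tropomyosin gene TPM1 changed by -0.83 ± 0.10. Among 18 other myosins, MYO1D fell (-3.06 ± 0.17) and MYO6, which moves towards the minus end of actin filaments, rose (0.37 ± 0.07).

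Genes of TGF-beta, activin and BMP signalling went both ways. Of 48 ligands, receptors, antagonists and effectors, 8 rose and 6 fell (limma 4 and 3), with a median of 0.02. On the ligand side, TGFB2 fell by 1.57. INHBB, the activin B subunit, went from 6.66, 8.38 and 7.36 FPKM in the Pri to 1.16, 3.12 and 3.06 in the LM libraries. The ligand gene BMP4 (-0.61 ± 0.09) also fell. FST, the secreted trap of activin, fell as well, with 24.1, 30.4 and 27.1 FPKM in the Pri and 6.11, 7.42 and 8.53 in the LM libraries, a log2 change of -1.90 ± 0.12. For these ligands and the trap, no LM value reached the lowest Pri value. On the receptor side, TGFBR2, the type II receptor, had 32.2, 36.6 and 33.9 FPKM in the Pri and 77.4, 55.5 and 57.9 in the LM libraries. The LM libraries were all above the Pri libraries, LM 1 most (0.89 ± 0.11). TGFBR1 (0.43 ± 0.07), BMPR1A (0.30 ± 0.07) and the coreceptor gene ENG (0.54 ± 0.08) rose, and the coreceptor gene TGFBR3 fell (-0.44 ± 0.08). LTBP1, which tethers latent TGF-beta to the matrix, and LTBP2, of the same family, rose by 1.51 and 1.61. LTBP2 went from 1.15, 1.27 and 1.19 FPKM in the Pri to 4.66, 3.11 and 3.28 in the LM libraries. The pseudoreceptor gene BAMBI also rose (0.75 ± 0.16).

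Most feedback genes of the MAPK cascade that changed were higher. Of 22, 9 rose and 2 fell, with a median of 0.21 (limma 5 and 2). SPRY1, an inhibitor of receptor tyrosine kinase signalling, had 15.2, 16.7 and 16.01 FPKM in the Pri and 37.3, 31.1 and 33.7 in the LM libraries, and SPRY4 41.5, 47.2 and 47.9 FPKM in the Pri and 89.8, 69.8 and 76.4 in the LM libraries. Their log2 changes were 1.08 ± 0.08 and 0.78 ± 0.09. SPRY2 (0.66 ± 0.12) and the phosphatase genes DUSP4 (0.57 ± 0.08), DUSP5 (0.51 ± 0.10) and DUSP6 (0.42 ± 0.08) rose, as did PHLDA1 (0.60 ± 0.07) and the ETS factor gene ETV1 (0.73 ± 0.08). The members that fell were the cytokine gene IL11 (-2.44 ± 0.30) and CCND1, the G1 cyclin, which went from 168, 139 and 147 FPKM in the Pri to 108, 111 and 101 in the LM libraries.

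Immediate early genes went both ways. Of 25, 4 rose and 6 fell (median 0.00087, limma 1 and 3), and the 4 that rose were DUSP4, DUSP5, DUSP6 and IER3, which also stand in the feedback list. ATF3, a stress-induced repressor, went from 2.53, 2.97 and 2.31 FPKM in the Pri to 1.16, 1.43 and 1.35 in the LM libraries, a log2 change of -0.997 ± 0.15. DUSP1 (-0.81 ± 0.11), IER5 (-0.53 ± 0.08) and MYC (-0.38 ± 0.08) fell. MYC stood at 21.5, 19.7 and 21.2 FPKM in the Pri and 16.1, 16.9 and 15.2 in the LM libraries. No member of the FOS or JUN families had a stable call. Of 21 Kruppel-like and SP factors, 3 rose, KLF13 (0.92 ± 0.15), KLF2 (0.76 ± 0.12) and KLF10 (0.41 ± 0.09).

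**Figure D3:**
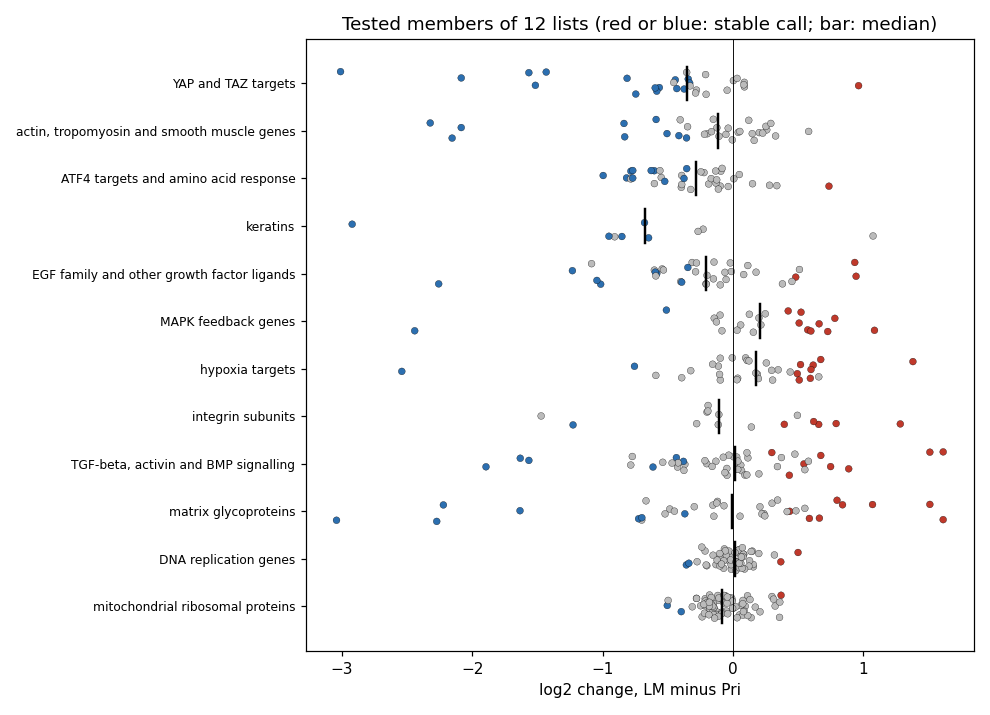
Log2 change of LM against Pri for every tested member of 12 lists. Red and blue points have stable calls, grey points have none, and the bar is the list's median. YAP and TAZ targets, actin genes and ATF4 targets have nearly all coloured points left of 0, MAPK feedback and hypoxia genes mostly right of 0, and replication and mitochondrial ribosomal genes lie close to 0.

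Several integrins rose while collagens and matrix glycoproteins went both ways. Of 15 integrin subunits, 5 rose and 1 fell (limma 3 and 0). The median over all of them was -0.11, but 0.27 with a filter of FPKM 2 and 0.14 with limma. ITGA2, the alpha subunit of the collagen receptor alpha2beta1, had 29.6, 34.4 and 30.6 FPKM in the Pri and 92.3, 69.1 and 70.1 in the LM libraries. Every LM library exceeded every Pri library, with a log2 change of 1.28 ± 0.11 (adjusted p = 1.03e-05). Its partner ITGB1 went from 38.9, 38.99 and 40.1 FPKM in the Pri to 63.3, 61.3 and 57.6 in the LM libraries. Another collagen-binding subunit, ITGA1 (0.79 ± 0.08), and the laminin-binding subunits ITGA6 (0.39 ± 0.07) and ITGB4 (0.66 ± 0.13) rose. ITGB2, the leukocyte beta subunit, fell from 1.21, 1.37 and 1.31 FPKM in the Pri to 0.452, 0.643 and 0.582 in the LM libraries.

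Of 21 collagen chains, 4 rose and 4 fell (median -0.03, limma 3 and 1). With a filter of FPKM 2 the median was -0.36. The microfibrillar chains COL6A1 (0.73 ± 0.09) and COL6A2 rose, COL6A2 from 6.73, 7.59 and 6.41 FPKM in the Pri to 14.4, 12.3 and 14.8 in the LM libraries. The basement membrane chains COL4A1 (-0.66 ± 0.09) and COL4A2 (-0.53 ± 0.07) fell, as did COL8A1 (-1.42 ± 0.09), while COL4A5 rose from a low level (1.78 ± 0.16). Among 26 enzymes and chaperones that modify collagen, P4HA1, a prolyl 4-hydroxylase subunit, rose (0.49 ± 0.08), and P3H2 (-0.96 ± 0.09), COLGALT2 (-0.88 ± 0.14) and PLOD2 (-0.37 ± 0.08) fell.

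Matrix glycoproteins had 8 higher and 7 lower of 36 (median -0.0083, limma 3 and 5). The median was 0.27 with a filter of FPKM 2 and 0.25 with limma. FN1, fibronectin, went from 8.42, 8.89 and 7.38 FPKM in the Pri to 2.87, 2.48 and 2.65 in the LM libraries, a log2 change of -1.64 ± 0.09. MATN2, a matrilin, fell further, from 3.36, 3.36 and 3.05 FPKM in the Pri to 0.319, 0.468 and 0.412 in the LM libraries. EFEMP1 (-2.22 ± 0.24), THBS1 (-0.73 ± 0.10) and the basement membrane proteoglycan genes HSPG2 (-0.70 ± 0.08) and AGRN (-0.37 ± 0.08) were lower. SPARC, a collagen-binding matricellular protein, had 6.52, 5.73 and 5.89 FPKM in the Pri and 13.7, 12.2 and 12.4 in the LM libraries. TGFBI (0.80 ± 0.09) and the laminin chain LAMB3 (0.59 ± 0.11) also rose.

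Extracellular proteases and their inhibitors had 4 higher and 5 lower of 52 (median 0.08, limma 3 and 2). MMP14, a membrane-bound collagenase, had 20.9, 21.03 and 19.5 FPKM in the Pri and 56.2, 36.3 and 41.03 in the LM libraries. Its log2 change was 1.11 ± 0.13. PLAU, the urokinase activator of plasminogen, rose by 0.54. TIMP3, a matrix-bound inhibitor of metalloproteinases, went from 35.9, 30.7 and 29.6 FPKM in the Pri to 13.6, 13.1 and 12.2 in the LM libraries. The protease genes ADAM10 (-0.36 ± 0.07) and ADAMTS16 (-1.04 ± 0.18) fell.

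**Figure D4:**
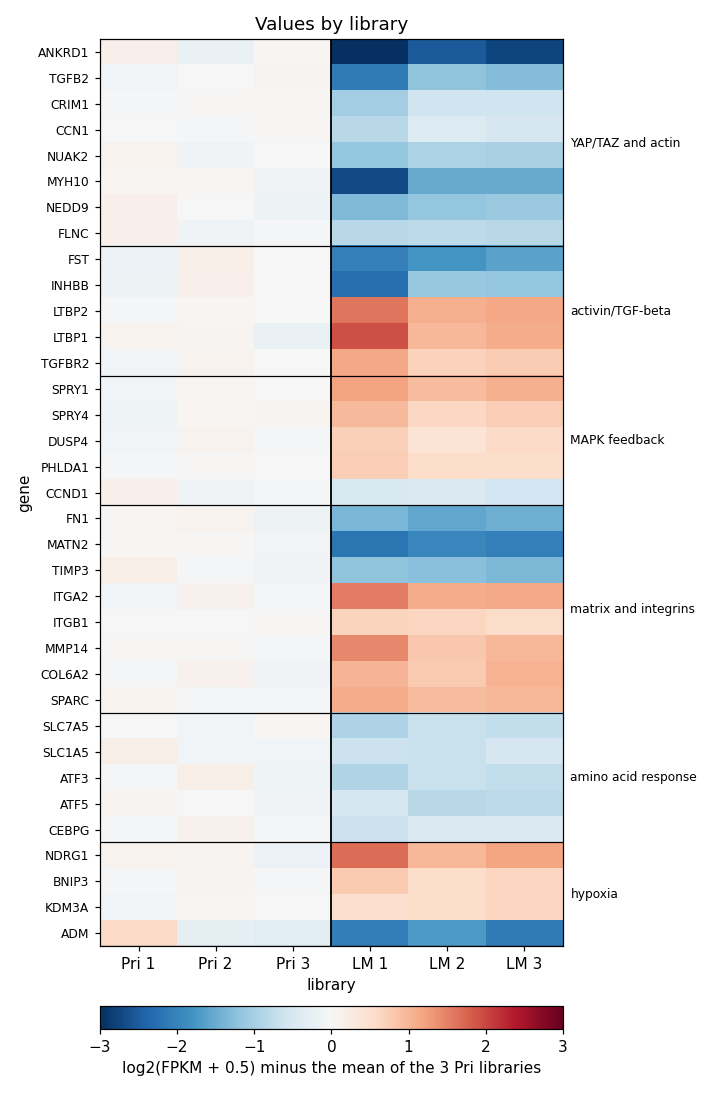
Level of 35 genes in each library as log2(FPKM + 0.5) minus the mean of the 3 Pri libraries, blue for lower and red for higher, limited to -3 and 3. The 3 LM libraries share the colour in every gene, and LM 1 has the deepest colour for MYH10, LTBP1, ITGA2 and NDRG1.

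LM 1 lay farthest from the Pri mean for 779 of the 1278 stable genes (61.0%), LM 2 for 276 and LM 3 for 223, on the log2(FPKM + 0.5) scale. Without the replicate 1 libraries of both groups edgeR called 3532 genes, 1827 higher and 1705 lower, against 2610 in the fit to all libraries. Of the 64 lists, 63 then had as many or more calls than in the fit to all libraries, and 1, the markers of other cells, lost its call of NKX2-1. Calls rose over all genes as well, so higher counts in the lists are no result about their members. At the adjusted p threshold in a single fit, the YAP and TAZ targets had 1 higher and 17 lower in all libraries and 1 and 20 without the replicate 1 libraries. The MAPK feedback genes had 10 and 2, then 11 and 2. The actin and smooth muscle genes had 2 and 10, then 2 and 13, and the ATF4 targets 2 and 13, then 2 and 14.

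Most tight junction genes and keratins with a stable call were lower. Of 24 tight junction genes, 5 fell and 2 rose. LSR, which recruits tricellulin to the corners where cells meet, had the largest fall, with 11.9, 10.6 and 9.92 FPKM in the Pri and 0.263, 0.784 and 0.814 in the LM libraries. ILDR2 (-2.66 ± 0.17), of the same family, followed. The polarity gene PARD6B went from 11.96, 10.4 and 10.5 FPKM in the Pri to 3.16, 4.43 and 4.41 in the LM libraries, and the scaffold TJP1 changed by -0.48 ± 0.07. F11R (0.76 ± 0.11) and PARD3 (0.39 ± 0.07) rose. Among 9 desmosome genes, DSP (-0.77 ± 0.08), PKP2 (-0.74 ± 0.08) and PKP4 (-0.60 ± 0.08) fell, and PERP rose (0.49 ± 0.07). The desmosome median was 0.23, and in the fit to all libraries alone 4 were called higher and 3 lower. Desmoplakin, the product of DSP, links desmosomes to keratins, and DSP had 9.49, 8.46 and 8.56 FPKM in the Pri and 5.28, 4.73 and 5.62 in the LM libraries. Of 9 keratins, 5 fell and 0 rose, with a median of -0.68. KRT81 fell most, from 5.33, 2.60 and 2.96 FPKM in the Pri to 0.272, 0.579 and 0.615 in the LM libraries, and KRT19 fell by 0.95 and KRT80 by 0.85 on the log2 scale.

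Mesenchymal genes had 4 higher and 2 lower of 14, with a median of 0.20. With limma there were 2 and 2, with a median of 0.02. VIM, the filament protein vimentin, went from 385, 351 and 354 FPKM in the Pri to 567, 451 and 481 in the LM libraries. Its log2 change was 0.45 ± 0.08, and ZEB1, a repressor of epithelial genes, rose by 0.40. SNAI2, another such repressor, had 4.21, 3.75 and 3.66 FPKM in the Pri and 1.08, 1.64 and 1.12 in the LM libraries, a fall of 1.61, and FN1 fell too. FOXQ1, a forkhead factor (2.08 ± 0.22), and the filament gene NES (1.51 ± 0.12) rose. Of 30 cadherins and protocadherins, 3 rose and 3 fell. DESeq2 made 1 and 2 of these calls and limma 0 and 2. CDH4 went from 12.9, 12.1 and 12.5 FPKM in the Pri to 5.89, 6.09 and 6.28 in the LM libraries, and the giant cadherin gene FAT1 from 55.99, 50.96 and 53.99 FPKM in the Pri to 38.7, 41.5 and 40.8 in the LM libraries.

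Most secreted growth factors that changed were lower. Of 36 ligands and binding proteins, 8 fell and 3 rose (median -0.21, limma 3 and 2). GAS6, the ligand of AXL, had 15.8, 16.6 and 15.6 FPKM in the Pri and 7.40, 7.71 and 8.29 in the LM libraries, a log2 change of -1.04 ± 0.07, and AXL itself fell by 0.60. IGFBP7, a binding protein, fell by 1.23 and BDNF, a neurotrophin, went from 4.77, 5.68 and 5.80 FPKM in the Pri to 2.17, 2.89 and 3.04 in the LM libraries. TGFA (-0.60 ± 0.11), EREG (-0.35 ± 0.07) and CSF1 (-0.39 ± 0.08) were lower. IGFBP1 (0.93 ± 0.10), NRG2 (0.94 ± 0.19) and PGF (0.48 ± 0.08) rose. Of 30 receptor tyrosine kinases, 10% had stable calls, near the share over all genes: AXL and ROR1 (-0.50 ± 0.10) fell and INSR (0.37 ± 0.08), the insulin receptor, rose. limma made 1 stable call in this list.

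Cytokine and immune genes showed no common direction. Of 60 chemokines, cytokines and receptors, 6 rose and 4 fell. The chemokine gene CCL2 (-6.84 ± 0.47) and IL11 fell most. IL7R went from 2.78, 1.68 and 1.75 FPKM in the Pri to 0.348, 0.565 and 0.548 in the LM libraries, and the death receptor gene TNFRSF21 changed by -0.52 ± 0.09. Those that rose had mean FPKM below 6, among them TNFRSF19 (1.83 ± 0.19), IL31RA (0.78 ± 0.09) and CRLF2 (1.18 ± 0.24). With a filter of FPKM 2 the list had 2 higher and 3 lower. Of 34 NF-kB factors and targets, 2 rose and 4 fell (median -0.03, limma 1 and 2). BIRC3 (-0.97 ± 0.17), an inhibitor of apoptosis, fell, and TRAF1, an adaptor of TNF receptors, rose (1.04 ± 0.14). The inhibitor gene NFKBIB (-0.58 ± 0.11) and NFKBIZ (-0.50 ± 0.10), of the same family, fell, and no gene of an NF-kB subunit had a stable call.

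Interferon-stimulated genes had 6 higher and 2 lower of 57 (median 0.18, limma 4 and 1). GBP2, a guanylate-binding protein, had 3.08, 2.68 and 2.48 FPKM in the Pri and 7.83, 5.25 and 5.93 in the LM libraries, and OAS3, an antiviral synthetase, 2.72, 2.16 and 1.88 FPKM in the Pri and 0.933, 0.957 and 1.09 in the LM libraries. DHX58 (0.87 ± 0.18), PARP10 (0.83 ± 0.11), IFI44 (0.72 ± 0.15) and IFI16 (0.46 ± 0.08) rose. Among 28 antigen presentation genes, HLA-B fell from 5.88, 4.14 and 4.16 FPKM in the Pri to 1.34, 1.58 and 1.62 in the LM libraries. It is one of several similar class I genes, so reads may be assigned to the wrong gene. CD274, which encodes the checkpoint ligand PD-L1, went from 6.10, 7.29 and 6.32 FPKM in the Pri to 4.33, 3.73 and 3.48 in the LM libraries. CD47, the signal that restrains phagocytes, rose by 0.41, the class I regulator NLRC5 by 0.61 and TAPBPL, a peptide editor, by 0.86.

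Genes of developmental pathways went both ways. WNT genes had 4 higher and 4 lower of 33 (median 0.04, limma 1 and 2). The abundant secreted antagonist DKK1 had 119, 116 and 114 FPKM in the Pri and 71.9, 82.6 and 76.05 in the LM libraries, a log2 change of -0.61 ± 0.07. The receptor genes FZD8 (0.93 ± 0.19), FZD1 (0.48 ± 0.09) and LGR4 (0.48 ± 0.07) rose, and FZD2 (-0.49 ± 0.10) fell. The ligand gene WNT3 fell (-0.71 ± 0.12) and WNT5A rose (0.39 ± 0.09). Of 26 NOTCH genes, HES2 (1.04 ± 0.18) and MAML3 (1.33 ± 0.17) rose and ADAM10 and MAML1 (-0.33 ± 0.07) fell. With a filter of FPKM 2 the NOTCH list had 0 higher and 2 lower, and with limma 1 and 0. No NOTCH receptor or ligand had a stable call.

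Axon guidance genes, many of which also guide migrating tumour and endothelial cells, had 6 higher and 7 lower of 52 (median 0.03, limma 2 and 3). NRP1, the coreceptor of semaphorins and VEGF, had 17.5, 18.9 and 17.2 FPKM in the Pri and 47.1, 36.3 and 34.3 in the LM libraries, and its partner PLXNA2 10.7, 10.3 and 10.8 FPKM in the Pri and 27.1, 18.4 and 18.8 in the LM libraries. Both were higher in every LM library. The secreted guidance cues SLIT2 and SEMA3E fell, SLIT2 from 4.66, 3.37 and 4.16 FPKM in the Pri to 0.885, 1.32 and 1.08 in the LM libraries. Their log2 changes were -1.91 ± 0.15 and -1.10 ± 0.12. PLXNB2 (-0.49 ± 0.08) fell and NTN4 (0.54 ± 0.10) rose.

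Smaller families had a few members each that changed. Of 21 adhesion G protein-coupled receptors, 3 rose and 3 fell, 0 and 1 with limma and 0 and 2 with a filter of FPKM 2. ADGRF1 fell from 4.03, 5.37 and 5.14 FPKM in the Pri to 0.00651, 0.0287 and 0.0249 in the LM libraries, ADGRG6 fell by 0.69 and ADGRG1 rose by 1.07. Of 16 phosphodiesterases, PDE4B (1.75 ± 0.22) and PDE4D (0.54 ± 0.08), which degrade cyclic AMP, rose, though with limma neither had a stable call. Of 17 S100 and annexin genes, S100A16 (0.72 ± 0.15), ANXA6 (0.73 ± 0.10) and ANXA11 (0.40 ± 0.08) rose and ANXA3 (-1.01 ± 0.10) fell. Among 16 prostanoid genes, the thromboxane synthase TBXAS1 (1.21 ± 0.23) and the thromboxane receptor TBXA2R rose, TBXA2R from 1.03, 1.25 and 1.09 FPKM in the Pri to 3.19, 2.32 and 2.86 in the LM libraries.

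Nearly all ATF4 targets that changed were lower. Of 36, 10 fell and 1 rose, with a median of -0.29 (limma 7 and 0). SLC7A5, the light chain of the LAT1 exchanger for large neutral amino acids, had 106, 98.9 and 108 FPKM in the Pri and 54.99, 65.1 and 62.8 in the LM libraries. All LM libraries lay below all Pri libraries, a log2 change of -0.78 ± 0.07. Its heavy chain SLC3A2 changed by -0.38 ± 0.08, the cationic carrier SLC7A1 by -0.36 ± 0.06 and the glutamine carrier SLC1A5 by -0.63 ± 0.08, SLC1A5 from 158, 133 and 134 FPKM in the Pri to 90.4, 88.1 and 98.7 in the LM libraries. The factor genes ATF5 (-0.77 ± 0.12) and CEBPG (-0.52 ± 0.08), the phosphatase subunit PPP1R15A (-0.60 ± 0.12) and CHAC1 (-0.82 ± 0.17), which degrades glutathione, fell with them. VLDLR, the lipoprotein receptor, rose (0.74 ± 0.11). Of 40 aminoacyl-tRNA synthetases and cofactors, 3 fell and 0 rose, among them YARS1 (-0.30 ± 0.06) and EPRS1 (-0.29 ± 0.06). The share was 7.5%, against 7.61% of all genes in either direction and 3.79% lower, and the median was -0.105. Without the filter on low counts 1 stable call was made in this list, and with limma 0.

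Among other solute carriers, the organic anion transporter SLCO4A1 rose (2.34 ± 0.15), as did the glutamate carrier SLC1A1, from 3.07, 3.88 and 3.40 FPKM in the Pri to 8.98, 6.08 and 6.89 in the LM libraries, and the sialic acid exporter SLC17A5 (0.60 ± 0.13). The carnitine carrier SLC22A5 fell (-0.53 ± 0.09). The whole list of 68 had 4 higher and 5 lower (median 0.0033, limma 2 and 3).

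Most hypoxia-inducible genes that changed were higher. Of 33, 8 rose and 2 fell, with a median of 0.17. NDRG1, a stress gene induced by low oxygen, had 5.42, 5.33 and 4.41 FPKM in the Pri and 17.1, 10.6 and 11.98 in the LM libraries, a log2 change of 1.38 ± 0.15. The mitophagy receptors BNIP3 and BNIP3L rose by 0.67 and 0.52, BNIP3 from 14.6, 15.8 and 14.3 FPKM in the Pri to 26.2, 21.96 and 23.5 in the LM libraries. EGLN3 (0.61 ± 0.12), a prolyl hydroxylase of the HIF factors, the demethylase gene KDM3A (0.59 ± 0.07) and P4HA1 rose. ADM, the vasodilator adrenomedullin and a classical target, went the other way, from 7.77, 4.12 and 3.97 FPKM in the Pri to 0.815, 1.18 and 0.775 in the LM libraries. Among 33 glycolysis and pentose phosphate genes, 3 rose and 1 fell, 8 and 2 without the filter on low counts, 5 and 2 with DESeq2 and 2 and 0 with limma. PFKFB3 (0.60 ± 0.09) rose and PFKFB2 (-0.69 ± 0.11) fell. Both encode enzymes that set the level of an activator of phosphofructokinase. PDK3, which inhibits pyruvate dehydrogenase, had 3.22, 3.81 and 3.73 FPKM in the Pri and 7.18, 5.58 and 6.66 in the LM libraries.

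The title of the series names fatty acid oxidation and oxidative phosphorylation. Of 44 fatty acid oxidation genes, 4 rose and 0 fell, with a median of 0.17 (limma 3 and 0). This was 9.09%, against 7.61% of all genes in either direction and 3.82% higher. In the fit to all libraries alone, 8 were called higher and 1 lower, where 8.16% and 7.38% of all genes were. ACOX2, a peroxisomal oxidase, had 1.42, 1.94 and 1.33 FPKM in the Pri and 4.42, 3.21 and 3.09 in the LM libraries, and EHHADH, also peroxisomal, 0.836, 0.972 and 0.920 FPKM in the Pri and 2.10, 1.56 and 1.37 in the LM libraries. The fatty acid transporter SLC27A4 rose from 21.6, 20.04 and 17.8 FPKM in the Pri to 29.8, 29.6 and 30.4 in the LM libraries, and DECR1, needed for unsaturated chains, by 0.47. Neither CPT1A nor CPT2, the carnitine shuttle enzymes, had a stable call. In fatty acid synthesis and storage 4 rose and 2 fell of 26 (median 0.07, limma 2 and 0). The lipins LPIN2 and LPIN3 (0.63 ± 0.11) rose. LPIN2 had 27.2, 28.5 and 25.1 FPKM in the Pri and 50.1, 41.5 and 45.1 in the LM libraries and the acyl-CoA synthetase ACSL5 31.2, 28.9 and 29.5 FPKM in the Pri and 55.4, 46.95 and 42.3 in the LM libraries. FASN, the synthase itself, fell by 0.32. Sterol genes had 1 higher and 1 lower of 29, IDI1 (0.35 ± 0.08) and SC5D (-0.41 ± 0.08), with DESeq2 2 and 2 and with limma none.

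Among SLC25 carriers 3 of 41 rose, SLC25A42 (1.21 ± 0.19), SLC25A23 (0.56 ± 0.10) and SLC25A44 (0.33 ± 0.07), and with limma there was no stable call. Respiratory assembly factors had 1 lower of 47, the copper chaperone SCO1 (-0.39 ± 0.08), and none with limma. Mitochondrial ribosomal proteins had 1 higher and 2 lower of 77, with MRPS12 (-0.50 ± 0.10) and MRPS15 (-0.40 ± 0.09) lower and MRPL35 (0.37 ± 0.07) higher. For the 12 subunits encoded by mitochondrial DNA no stable call was made by edgeR, DESeq2 or limma. In the fit to all libraries edgeR called 0 of them, and 0 had an unadjusted p under 0.05. Without both replicate 1 libraries, which had the lowest mitochondrial shares, it called 0 higher and 4 lower. The most abundant, MT-CO1, had 508, 712 and 801 FPKM in the Pri and 649, 885 and 793 in the LM libraries. These shares, 7.32%, 2.13%, 3.9% and 0%, did not exceed the 7.61% of all genes in either direction. All stable calls of SLC25 carriers were higher, and 3.82% of all genes were.

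Redox genes had no common direction. Of 44 NRF2 targets and glutathione genes, 2 rose and 3 fell (median 0.03, limma 1 and 0). FTL, the ferritin light chain, had 463, 282 and 389 FPKM in the Pri and 205, 231 and 204 in the LM libraries. The LM values were below the Pri values in every library, a log2 change of -0.84 ± 0.14. EPHX1 (-0.61 ± 0.13), an epoxide hydrolase, fell, and CBR3 (0.76 ± 0.13) and GCLM (0.38 ± 0.07) rose. Metallothioneins and zinc transporters had 0 higher and 0 lower of 22, 3 of them with an unadjusted p under 0.05 in the fit to all libraries, and DESeq2 found 1 stable fall and limma 0. Without the filter on low counts 1 rose and 1 fell. MT2A, the most abundant, had 116, 106 and 128 FPKM in the Pri and 86.5, 96.2 and 74.5 in the LM libraries. Of 28 ABC transporters, 1 fell. ABCE1, the most abundant, stood at 47.4, 49.4 and 51.7 FPKM in the Pri and 41.7, 52.04 and 44.02 in the LM libraries. AKR1C3, a ketosteroid reductase, went from 2.86, 2.02 and 1.83 FPKM in the Pri to 4.55, 3.71 and 4.52 in the LM libraries. It shares close sequence with the other AKR1C genes, so reads may be assigned to the wrong one.

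Replication genes and cyclins had stable calls about as often as all genes. Of 56 replication genes, 2 rose and 2 fell, and all 56 log2 changes lay between -0.36 and 0.50. MCM10, an initiation factor, had 21.5, 20.8 and 22.3 FPKM in the Pri and 30.04, 29.7 and 32.2 in the LM libraries, DSCC1 rose by 0.37, and POLD1, a polymerase catalytic subunit, changed by -0.36 ± 0.09. Of 46 cyclins, CDKs and inhibitors, 8.7% had stable calls. CCNA1 (1.25 ± 0.13) and E2F2 (0.85 ± 0.09) rose, and CCND1 and its kinase CDK6 fell, CDK6 from 25.9, 28.9 and 29.7 FPKM in the Pri to 17.3, 22.8 and 21.2 in the LM libraries. Of 34 kinesins, 4 rose, KIFC2 (0.93 ± 0.15), KIF3C (0.63 ± 0.11), KIF13B (0.53 ± 0.11) and KIF5B (0.41 ± 0.07), which carry cargo rather than act in mitosis, though with limma none had a stable call. Among 22 tubulins and gamma-tubulin complex genes, TUBGCP2 rose (0.45 ± 0.09) and TUBGCP4 fell (-0.38 ± 0.08). TUBA1A rose from 23.4, 25.2 and 18.5 FPKM in the Pri to 58.9, 33.2 and 38.5 in the LM libraries. With limma no member of this list had a stable call.

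Chromatin and proteostasis genes were also near or below the share of all genes. Of 88 chromatin modifiers, KDM3A and SMARCA2 (0.36 ± 0.06) rose and KMT2B (-0.38 ± 0.08) fell. Of 56 histone genes, 0 rose and 0 fell, edgeR called 1 higher and 2 lower in the fit to all libraries, 6 and 5 without both replicate 1 libraries, 18 had an unadjusted p under 0.05 in all libraries, and limma found 1 stable fall and DESeq2 0. The most abundant histone gene, H3C2, had 689, 646 and 692 FPKM in the Pri and 694, 751 and 705 in the LM libraries. Of 46 proteasome subunits, PSMD10 (0.35 ± 0.07) rose and PSMD8 (-0.34 ± 0.07) fell. Of 75 heat shock and chaperonin genes, 2 rose and 3 fell (median 0.02, limma 1 and 1). HSP90AA1, the inducible HSP90, fell from 447, 442 and 434 FPKM in the Pri to 294, 346 and 344 in the LM libraries, BAG3, a co-chaperone of HSP70, rose by 0.64, and HSPA14 by 0.46. Among 36 unfolded protein response genes, EDEM2 (0.53 ± 0.10) rose. Cytosolic ribosomal proteins had 4 lower and 0 higher of 83, and 9 lower without the filter on low counts. RPL28 (-0.49 ± 0.07) and RPS16 (-0.46 ± 0.08) fell most, and RPS19 changed by -0.40 ± 0.08. Of 54 lysosome and autophagy genes, 4 rose and 1 fell (median 0.09, limma 1 and 0). CTSB, a lysosomal cysteine protease, had 17.8, 18.1 and 17.9 FPKM in the Pri and 34.4, 25.8 and 28.6 in the LM libraries, GAA, the acid glucosidase, rose by 0.50, and MITF, a transcription factor of lysosome genes, changed by -0.44 ± 0.09.

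Genes of the HOX clusters mark cell identity. Of 12 tested HOX genes, 3 fell and 0 rose: HOXB9, HOXB8 (-3.12 ± 0.56) and HOXC13 (-2.63 ± 0.56). HOXB9 had 4.09, 3.43 and 3.77 FPKM in the Pri and 0.577, 1.61 and 0.969 in the LM libraries, while the other two were below an FPKM of 1. DESeq2 made 1 stable call in this list. Of 404 ZNF genes, 13 rose and 19 fell, 7.92%, close to the share of all genes. ZNF114 fell most among those above an FPKM of 1, from 2.29, 1.32 and 2.17 FPKM in the Pri to 0.214, 0.371 and 0.321 in the LM libraries, and ZNF347 (1.09 ± 0.16) and ZNF440 (1.07 ± 0.18) rose. ZNF genes have close relatives, so reads may be split among them.

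Long noncoding RNAs named LINC had 8 higher and 15 lower of 250, 9.2%, with 7 and 6 under DESeq2 and 3 and 5 under limma. LINC00452 fell by 3.62. LINC02582 fell from 14.9, 11.4 and 11.2 FPKM in the Pri to 0.0647, 0.346 and 0.176 in the LM libraries, and LINC01605 rose from 0.356, 0.429 and 0.474 FPKM in the Pri to 6.43, 5.24 and 4.25 in the LM libraries. Both separated the groups in all libraries. LINC00973 (0.77 ± 0.15) was the most abundant that rose. Of 54 small RNA host genes, 1 rose and 4 fell (0 and 2 with a filter of FPKM 2, 0 and 1 with limma), among them MIR4280HG (-1.47 ± 0.18) and GAS5 (-0.39 ± 0.07), a host of small nucleolar RNAs.

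A set of transcripts was present in 1 group and had no count in the other. There were 31 genes with 0 counts in every LM library and at least 10 in every Pri library, against 2 with the reverse pattern. They were chosen for these counts, so no test is given. The 31 were at least 15.1-fold to at least 121-fold lower in LM cells, against a floor of 3 counts over the group. LINC01036 had 320 counts in Pri cells in all, LINC00923 264 and MIR4527HG 214. ANKRD30A, a breast differentiation antigen, had 212, the meiotic recombination factor PRDM9 134 and the zinc finger genes ZNF43 and ZNF558 139 and 138. CHRDL1, an antagonist of bone morphogenetic proteins, also had 320, but 226 of them came from Pri 1, and RNF17 and CPPED1 were likewise highest in Pri 1. The reverse pattern was shown by TMEM200A, with 106 counts in LM cells and at least 31.2-fold higher, and WNT2, a WNT ligand, with 46 and at least 13.6-fold. Of the genes named here only CHRDL1 and MIR4527HG reached a mean FPKM of 1 in Pri cells, with 1.34 ± 1.32 and 2.60 ± 0.56 (SD, n = 3).

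**Figure D5:**
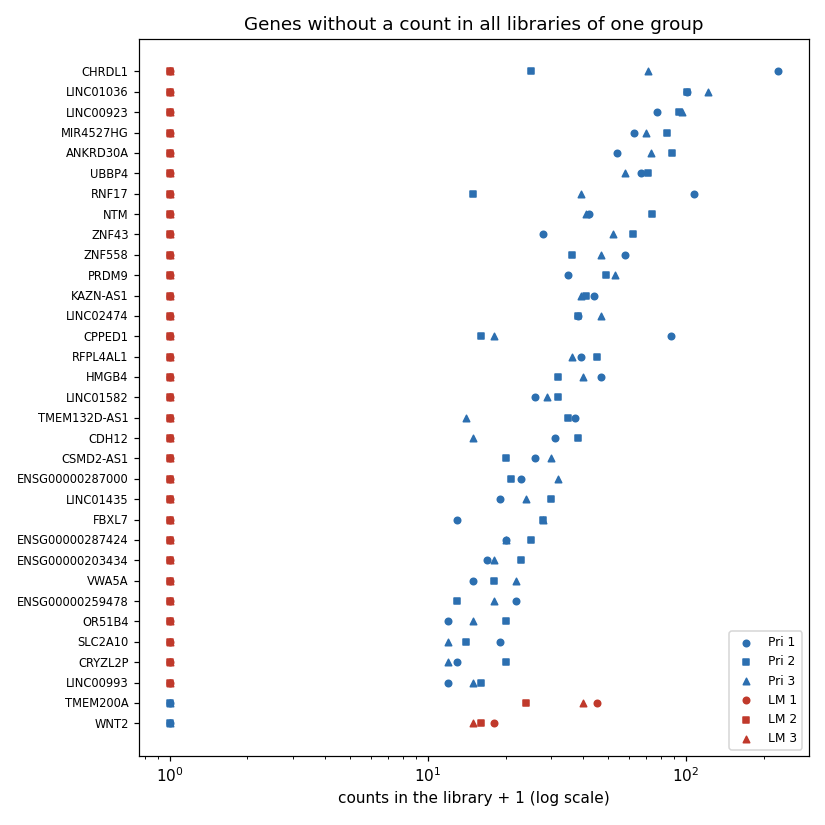
Counts plus 1 in each library (log scale) for the 31 genes with no count in LM and at least 10 in each Pri library, and below them the 2 with the reverse pattern. Blue symbols are Pri and red symbols LM libraries. For CHRDL1, RNF17 and CPPED1 the Pri 1 value stands well to the right of Pri 2 and Pri 3.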

How the data were processed

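Total RNA of MDA-MB-231 Pri and LM cells was sequenced after depletion of ribosomal RNA, with a directional kit per the labels' protocols. The deposited tables give a raw count and an FPKM value per gene, and per the submitters' processing notes HISAT2 and HTSeq 0.13.5 were among the tools used, with GRCh38 among the builds. The strand setting is not given in the sources used here. FPKM was used as deposited by the authors. Counts were tested in R 4.3.3 with edgeR 4.0.16 (filterByExpr with a minimum count of 10, TMM scaling, quasi-likelihood F test, Benjamini-Hochberg adjustment). DESeq2 1.42.0 and limma 3.58.1 (with trend, on log2(FPKM + 0.5), for genes at FPKM 0.5 or more in 3 libraries) served as alternatives, beside no filter on low counts, a filter of FPKM 2, median-of-ratios factors, library totals, the replicate number as a block and each library left out in turn. The tests were tried on simulated data. The members and lists were chosen with earlier results of these data known. For each list, up to 3 stable members were named with the largest log2 change, a mean FPKM of at least 1 in the higher group, no overlap of groups and a call under every alternative, or else its most abundant member. Other members were chosen after their values were seen. Genes near-identical to others and overlapping genes may share reads. Some members are not reported here.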

Additional observations from a re-analysis of the deposited data

How the results depend on the processing

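The number of genes called at an adjusted p under 0.05 was 2610. It was 1701, 1682 and 1700 with limma on log2(FPKM + 0.5), log2(FPKM + 0.1) and log2(FPKM + 1), and 506 when a log2 change of at least 1 was also asked for. Leaving out 1 library at a time gave 1479 to 2658. With limma 570 stable calls were made instead of 1278. Counts under the other filters, scalings and DESeq2 were within 1.5 times of these. The causes of the differences were not tested.

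With the replicate number as a block edgeR called 4404 genes, 2284 higher and 2120 lower. The deviations from the group means correlated at 0.353, 0.0961 and 0.105 between same-numbered libraries, and not every library correlated best with its own number. The highest value between same-numbered libraries was that of replicate 1, and both of these libraries also stood apart on the second principal component. The labels do not say that numbers pair samples, so samples were not treated as paired in the main fit. What the replicate 1 libraries share is not stated in the labels and was not tested.

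The members named for the largest changes in their lists were chosen for calls under every alternative, so their stability there is no result. Other members were named for abundance or after their values were seen. Over 360 genes followed, chosen mostly for stable calls, 62 of 5593 combinations of gene and setting lost the call. Of 384 counts of stable calls over lists under alternatives, 78 differed by more than 1.5 times from the main count. Of 384 medians, 31 moved by more than the spread between libraries. Both replicate 1 libraries stood apart, so leaving them out was added after the data were seen.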

Other observations

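Antisense transcripts could be matched to their genes by symbol in 480 tested pairs. Of these antisense genes, 17 (3.54%) had a stable call. In 11 pairs both members did, and all 11 had the same direction. Among 76 pairs in which the partner gene had a stable call, the antisense member had the same sign in 69. The same count over all 480 pairs was not made. Genes with several antisense partners, such as NAV2 and COL4A2, count once for each. The kit marks strand, but the strand setting of the counting is not given in the sources used here, so reads of the 2 members cannot be told apart.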
